A study of Mus musculus with 2 samples.

Results

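Of the 8735 distinct Nanog peaks on chromosomes 1 to 19 and X, 2425 (27.8%, 95% interval 26.8 to 28.7) were unmasked intronic peaks. Their middle base lay inside a protein-coding gene of GENCODE vM21, in no exon of any gene, over 5 kb from the transcription start site (TSS) of every annotated gene, and in sequence that the mm10 genome does not mark as a repeat. These peaks are called members below, and a gene around a member is its host. Of the 8735 peaks, 4086 had their middle base in a protein-coding gene, 3638 of these were in no exon, and 2915 of the latter were over 5 kb from every TSS. A further 490 peaks met every condition except that their middle base was soft-masked. The closest member lay 5019 bp from a TSS and the nearest peak on the other side of the limit 4996 bp, and the limit set aside 603 unmasked intronic peaks. Each gene counted with 1 TSS, the 5' end of its gene line. With the TSS of every annotated transcript, 1934 peaks met the conditions, so some members lay near the start of another transcript.

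Nanog was immunoprecipitated from crosslinked, sonicated chromatin of the Bruce-4 line of mouse embryonic stem cells (ESCs) grown in serum with leukemia inhibitory factor (LIF). A rabbit monoclonal antibody was used, and the bound DNA was sequenced (ChIP-seq). The series has 1 immunoprecipitated sample and 1 input sample, with no treatment or genetic change in either and no replicate. The peak list of the immunoprecipitated sample gives positions only, so peak strength, read depth and sites below the calling threshold cannot be read from it. Intervals in the text are 95% intervals that treat peaks as independent and cover counting error only.

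Nanog is a homeodomain transcription factor of the pluripotent embryo and of ESCs, where it shares many sites with Oct4 and Sox2. Oct4 and Sox2 can bind side by side on a composite element made of a Sox site and an octamer, and Klf4 and Esrrb are further factors of the ESC network. Introns often hold enhancers, which can act on the gene around them or on another gene of the neighbourhood. The first intron of many genes is long and rich in regulatory sequence.

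To show what members with a Sox2-Oct4 composite looked like, the 10 with the fewest mismatches, ordered then by closeness to the peak centre, are given from the GRCm38.p6 genome, 5' to 3'. The composite was read as the Sox part CATTGT, 1 base of any kind and the octamer ATGCAAAT, with at most 2 mismatches and on either strand. Capitals mark the composite copy, with 40 bases on each side.
Gm37240, intron 3, chr3:85338351-85338445, plus strand: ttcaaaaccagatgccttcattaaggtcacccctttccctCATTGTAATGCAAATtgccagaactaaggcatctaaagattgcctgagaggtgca
Ccser2, intron 5, chr14:36914747-36914841, minus strand: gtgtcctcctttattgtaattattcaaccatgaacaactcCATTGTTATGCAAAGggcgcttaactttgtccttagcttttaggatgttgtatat
Kalrn, intron 33, chr16:34155085-34155179, minus strand: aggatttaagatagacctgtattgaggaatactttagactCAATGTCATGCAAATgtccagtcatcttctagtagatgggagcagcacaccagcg
Glis3, intron 2, chr19:28635123-28635217, minus strand: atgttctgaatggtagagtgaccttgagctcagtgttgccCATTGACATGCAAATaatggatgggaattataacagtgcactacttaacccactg
Ntm, intron 1, chr9:29657863-29657957, minus strand: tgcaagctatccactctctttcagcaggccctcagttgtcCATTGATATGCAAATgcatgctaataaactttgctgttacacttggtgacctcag
Ube2e2, intron 3, chr14:18666317-18666411, minus strand: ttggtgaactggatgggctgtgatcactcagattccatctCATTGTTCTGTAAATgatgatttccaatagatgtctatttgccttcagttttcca
Gpc6, intron 5, chr14:117852995-117853089, plus strand: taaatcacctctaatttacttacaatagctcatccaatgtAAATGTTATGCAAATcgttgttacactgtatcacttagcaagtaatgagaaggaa
Dlgap4, intron 2, chr2:156690998-156691092, minus strand: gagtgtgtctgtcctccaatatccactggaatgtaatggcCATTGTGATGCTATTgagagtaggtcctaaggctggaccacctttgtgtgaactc
Mmel1, intron 2, chr4:154877553-154877647, plus strand: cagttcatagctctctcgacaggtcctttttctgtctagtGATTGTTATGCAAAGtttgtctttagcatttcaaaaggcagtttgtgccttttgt
Sgms1, intron 4, chr19:32240708-32240802, minus strand: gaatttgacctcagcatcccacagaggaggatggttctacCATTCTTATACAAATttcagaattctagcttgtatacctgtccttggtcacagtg
The copy in Gm37240 was the only one among the members without a mismatch, and its centre was 130 bp from the centre of a 278 bp peak. The copies in Ccser2, Kalrn, Glis3 and Ntm had 1 mismatch, and the other 5 shown had 2. Their centres were 1 to 52 bp from the peak centre. Of the 90 members with a composite, 85 had 2 mismatches at best.

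For 2 other motifs, Esrrb and the extended Nanog motif, 1 member with the most copies of each is shown, as 200 bases of the peak. Capitals mark the copies of Esrrb (TCAAGGTCA) in Dst and of the extended Nanog motif (GCCATTAA) in Lrrc36, on either strand.
Dst, intron 2, chr1:34103291-34103490, plus strand: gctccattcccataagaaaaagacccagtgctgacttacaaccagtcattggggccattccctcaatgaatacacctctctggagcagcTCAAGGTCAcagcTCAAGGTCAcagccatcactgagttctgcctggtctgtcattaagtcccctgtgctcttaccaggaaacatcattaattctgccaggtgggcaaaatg
Lrrc36, intron 5, chr8:105432073-105432272, plus strand: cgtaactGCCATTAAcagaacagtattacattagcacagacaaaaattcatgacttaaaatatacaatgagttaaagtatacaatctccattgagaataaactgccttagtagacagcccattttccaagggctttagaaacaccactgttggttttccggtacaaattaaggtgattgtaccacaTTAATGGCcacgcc
The Dst stretch held 2 Esrrb copies in the same orientation, and the Lrrc36 stretch held 2 extended Nanog copies in opposite orientations.

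The Sox2-Oct4 composite and the Klf motif had the highest ratios of members to control windows. Control windows had the width of the member, lay 1 kb beyond its edges and had an unmasked intronic middle base, and there were 3377 of them. The composite occurred in 90 members (3.71%, interval 2.995 to 4.54) and in 0.652% of windows, a ratio of 5.70 (3.59 to 9.05). With at most 1 mismatch only 5 members held it, and the interval of the ratio (1.74, 0.468 to 6.48) included 1. Klf motifs (GCCMCRCCC, where M is A or C and R is A or G) occurred in 8.66% of members and 2.25% of windows, a ratio of 3.85 (2.98 to 4.98). The Esrrb motif had a ratio of 3.13 (2.17 to 4.50), the extended Nanog motif 2.93 (1.88 to 4.59) and the octamer 2.80 (2.12 to 3.70). The Sox motif (CCWTTGT, where W is A or T) was the most frequent, in 29.7% of members and 11.9% of windows, a ratio of 2.498 (2.24 to 2.79). The Nanog core CCATTA, a short sequence that is frequent by itself, occurred in 20.1% of members and 12.8% of windows, a ratio of 1.58 (1.40 to 1.77).

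The other 4 motifs were Tead, AP-1, the Myc E-box and CTCF. Tead (GGAATG) occurred in 25.2% of members and 17.6% of windows, a ratio of 1.43 (1.29 to 1.58), and AP-1 (TGASTCA, where S is C or G) had a ratio of 1.36 (1.13 to 1.63). The intervals of the Myc E-box CACGTG (0.889, 0.699 to 1.13) and of CTCF (1.86, 0.784 to 4.40, with 12 members) included 1. A copy of Sox, octamer or composite was present in 35.2% of members and 14.0% of windows, and 30.5% of members had none of the 11 motifs, against 54.1% of windows. Motifs can overlap: the octamer is part of the composite and the Nanog core part of the extended motif. Median GC content was 47.5% (47.2 to 47.8) in members and 44.7% (44.5 to 45.0) in windows, and its part in the ratios was not tested.

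**Figure D1:**
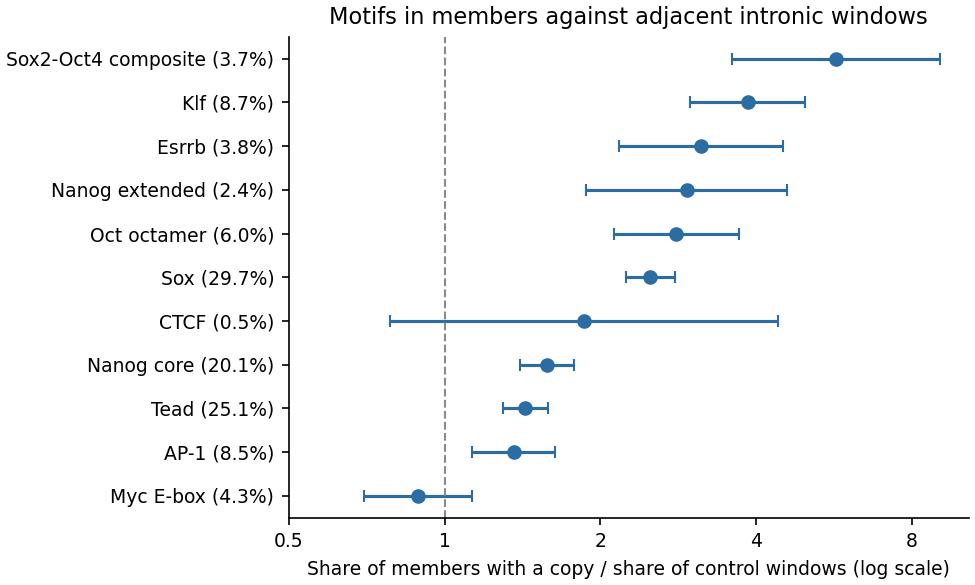
Share of the 2425 members with a copy of each motif divided by the share of 3377 adjacent intronic windows, on a log scale. Points are ratios, bars are 95% intervals, the dashed line marks a ratio of 1 and the percentage beside a name is the share of members with a copy. The composite has the highest ratio, 5.70, and the bars of the Myc E-box and CTCF cross 1.

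Copies gathered at the middle of the members. Within 50 bp of the centre there were 51 composite copies, 0.210 per kb of sequence. Between 500 and 1000 bp away the value was 0.0115 per kb, which makes a ratio of 18.2 (11.5 to 28.9). The sequence away from the centre was not limited to unmasked or intronic bases, as the middle bases were, and its part in the ratios was not tested. The central ratio was 5.33 (4.12 to 6.88) for Klf, 4.94 (3.38 to 7.21) for Esrrb, 4.78 (3.56 to 6.42) for the octamer and 3.87 (3.43 to 4.36) for Sox. For the Nanog core it was 2.03 (1.76 to 2.35), for Tead 1.60 (1.40 to 1.84) and for AP-1 1.45 (1.12 to 1.88). The interval for CTCF (2.31, 0.658 to 8.10, with 3 copies) included 1. The Myc E-box had 0.132 copies per kb at the centre and 0.131 per kb away from it, a ratio of 1.01 (0.702 to 1.45).

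**Figure D2:**
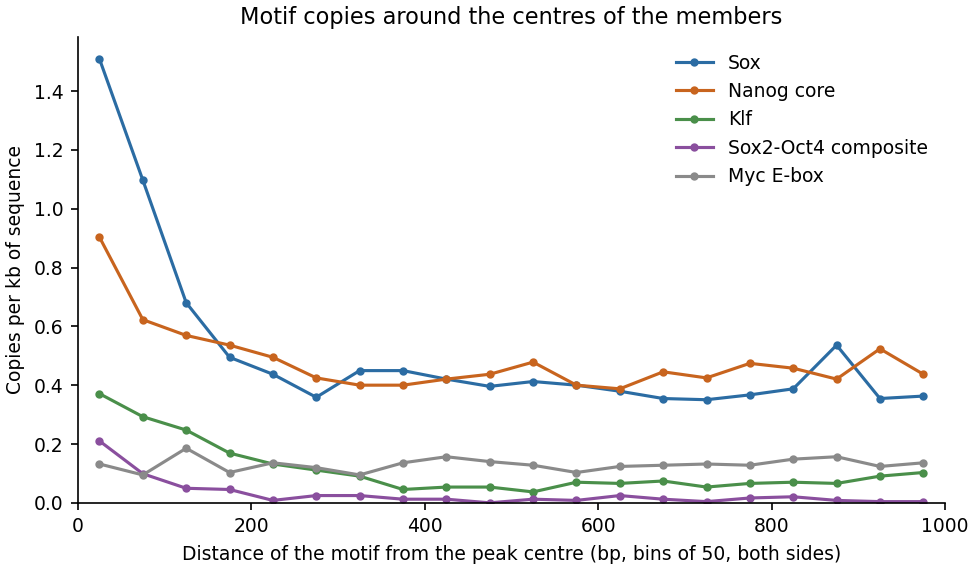
Copies per kb of 5 motifs in bins of 50 bp by distance from the centres of the 2425 members, both sides combined. Sox falls from 1.51 copies per kb in the central bin to 0.391 at 500 to 1000 bp, while the Myc E-box stays between 0.0949 and 0.186 in all bins.

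Members were compared with the Nanog peaks most like them, 2212 unmasked intergenic peaks and the 490 soft-masked intronic peaks, all over 5 kb from every TSS. The composite was less frequent in members than in intergenic peaks, 3.71% against 4.97%, a ratio of 0.746 (0.568 to 0.980). The Myc E-box was more frequent, 4.29% against 3.12%, a ratio of 1.37 (1.02 to 1.85). Against soft-masked peaks, Tead was less frequent in members, 25.2% against 30.0%, a ratio of 0.839 (0.720 to 0.976). The intervals of all other motifs included 1 in both comparisons. No adjustment was made for the 11 motifs compared in each. Median width was 323 bp in members (317 to 328), 323 bp in intergenic peaks and 316 bp (303 to 329) in soft-masked peaks.

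Host genes were numerous, and most held a single member. Of 15412 protein-coding genes with eligible sequence (unmasked, outside exons and over 5 kb from every TSS), 1719 (11.2%) hosted at least 1 member. There were 1281 hosts with 1 member, 438 with at least 2, 150 with at least 3 (0.973% of the 15412) and 43 with at least 5. In all, 2361 members had 1 host and 64 had 2, where genes overlap. Hosts were long genes, with a median length of 106 kb against 26.3 kb for genes with eligible sequence and no member.

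The share of genes with a member rose with gene length, while density was lowest in the longest genes. Among genes of up to 30 kb, 2.39% were hosts, and this share was 12.4% at 30 to 100 kb, 31.6% at 100 to 300 kb and 50.3% above 300 kb. Per Mb of eligible sequence, these classes held 4.96, 5.65, 4.996 and 2.87 members, with 4.35 over all genes. The interval of the longest class (2.65 to 3.11) lay below those of the other 3, of which the lowest began at 4.29.

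The 12 genes with most members are given with what their gene lines span, since a gene line is the full extent of all annotated transcripts. Gm20388 had 16 members, all in its first intron of 4384 kb. That line contains 71 other protein-coding genes, 10 of the 16 members also lay in one of them (among them Gse1, Ankrd11, Banp and Usp10), and 15 were nearer to the TSS of another protein-coding gene. Fgfr2, which encodes a receptor of fibroblast growth factors, had 11 members in a gene line of 2961 kb that contains 29 other protein-coding genes. Its principal transcript spans 102 kb, none of the 11 lay in it, and 8 of the 11 had another host. These counts describe the annotation of 2 very long gene lines, and leaving both out is given among the alternatives.

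Etl4, also called sickle tail, a gene of notochord and intervertebral disc development, held 13 members at 25.8 per Mb. None was in the first intron of the principal transcript, 11 were in later introns and 2 outside it. They lay 267 to 782 kb from its TSS. The smallest gap between neighbours was 0.354 kb and the median gap 14.6 kb. The last 4 were all in intron 4, and the endmost, chr2:20691432-20691741, held a composite. Fhit, a hydrolase of diadenosine triphosphate whose gene spans a common fragile site, had 10 members in 3 groups, with 3 in intron 2, 3 in intron 3 and 4 in intron 7, the last group 1466 to 1503 kb from the TSS.

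Clybl, a mitochondrial lyase of the citramalyl-CoA pathway, had 9 members in 220 kb and the highest density of the 12, 67.2 per Mb. There were 5 in its first intron and 4 in intron 2, from 73.9 to 160 kb downstream of the TSS, and both chr14:122277324-122277558 and chr14:122341836-122342328 held a composite. Ptprg, a receptor tyrosine phosphatase, had 8 members, 7 of them in a first intron of 167 kb. One of these, chr14:11663603-11664031, held a composite and an octamer. Tns3, a focal adhesion protein of the tensin family, had 7 members at 38.7 per Mb, 4 in the first intron and 3 in introns 2 and 4, and the widest of them measured 782 bp.

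Auts2, whose product takes part in a variant Polycomb complex, had 8 members across 1106 kb. The 3 members within the principal transcript lay 979 to 1016 kb from the TSS of the gene line, and 3 of the 8 held a composite. Ctif, a factor of translation initiation at the nuclear cap-binding complex, had 7 members at 35.1 per Mb, all in later introns and 4 of them in intron 10. Schip1 and Iqschfp, which overlap, shared the same 7 members, 2 of which were 861 and 939 bp wide. Cdh13, a cadherin anchored in the membrane by a lipid, had 7 members over 628 kb, and 6 of the 7 held none of the 11 motifs.

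**Figure D3:**
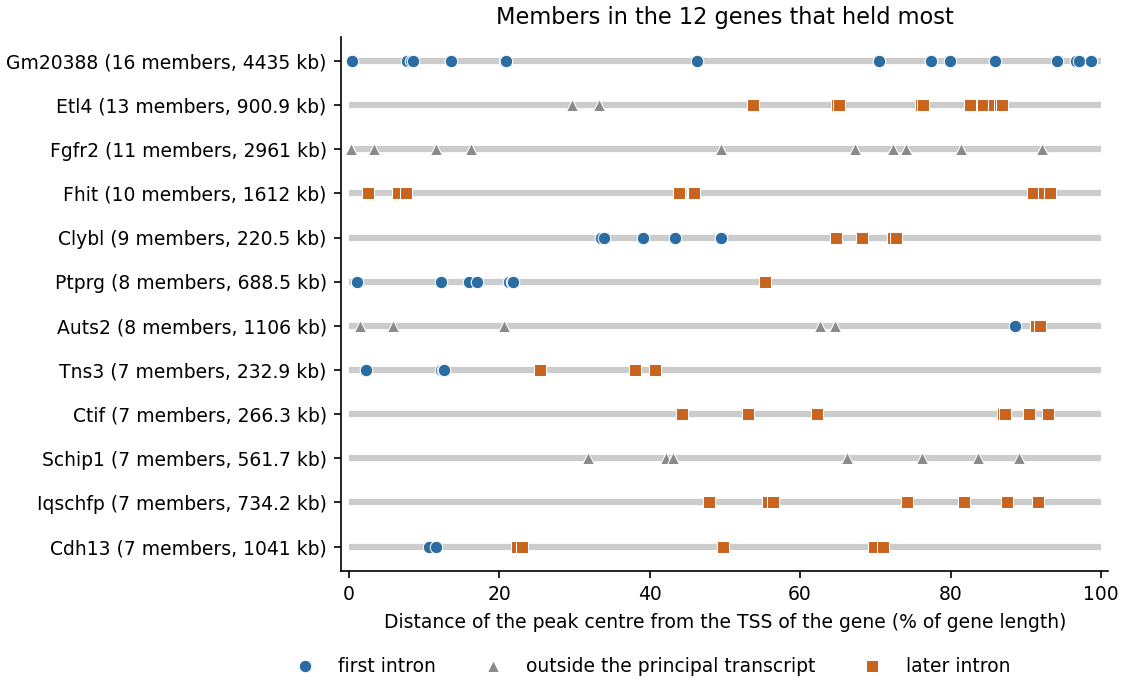
Position of members in the 12 genes with most of them, as a percentage of gene length from the TSS (0) to the 3' end (100), with the number of members and the length of the gene line beside each name. Circles are members in the first intron of the principal transcript, squares in later introns and triangles outside that transcript. In Ptprg, 7 of the 8 members gather in the first 25% of the gene, those of Etl4 past 25%, and those of Schip1 and Iqschfp are the same peaks.

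Introns were read from the principal transcript of the longest host. The first intron held 654 members (27.0%), later introns 1557 (64.2%), and 214 (8.82%) lay outside the principal transcript. Of the 2211 members within its introns, 29.6% (27.7 to 31.5) were in the first intron. If each member had fallen evenly over the eligible introns of its own host, 25.0% would have been. By number, 372 members were in intron 2, 226 in intron 3, 153 in intron 4, 121 in intron 5 and 685 in intron 6 or later. The last of 2 or more introns held 161, and 27 were in an only intron.

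Members were denser in first introns than in later ones. Per Mb of eligible sequence of the hosts, first introns held 15.6 members (14.5 to 16.9) and later introns 11.2 (10.6 to 11.7), a ratio of 1.40 (1.28 to 1.53). Hosts are genes with a member, which raises both densities. Over all protein-coding genes the ratio was 1.497 (1.37 to 1.64), and compared within each host, over the 1153 hosts with eligible sequence of both kinds, it was 1.44 (1.28 to 1.62). Compared within each host and class of distance from its TSS, which left 573 members, it was 1.22 and its interval (0.995 to 1.504) included 1. Taken per member, the first introns were long, with a median of 47.8 kb against 17.2 kb for later introns. An intron with several members counted once for each of them. The part of the 5 kb limit in this difference was not tested.

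Density also fell with distance from the TSS of the gene. Over all protein-coding genes there were 6.38 members per Mb (5.63 to 7.24) at 5 to 10 kb, 5.54 at 10 to 20 kb, 5.10 at 20 to 50 kb, 4.64 at 50 to 100 kb, 3.86 at 100 to 200 kb and 2.91 (2.65 to 3.19) farther away. First introns exceeded later ones most at 10 to 20 kb, with 7.87 against 4.07 members per Mb, a ratio of 1.93 (1.54 to 2.42). At 20 to 50 kb the ratio was 1.30 (1.08 to 1.57) and at 50 to 100 kb 1.33 (1.07 to 1.65). The intervals at 5 to 10 kb, 100 to 200 kb and farther included 1. The 6 classes combined gave 1.34 (1.21 to 1.47). The median member lay 54.5 kb (50.6 to 58.2) from the TSS of its host, with quartiles of 21.1 and 143 kb.

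**Figure D4:**
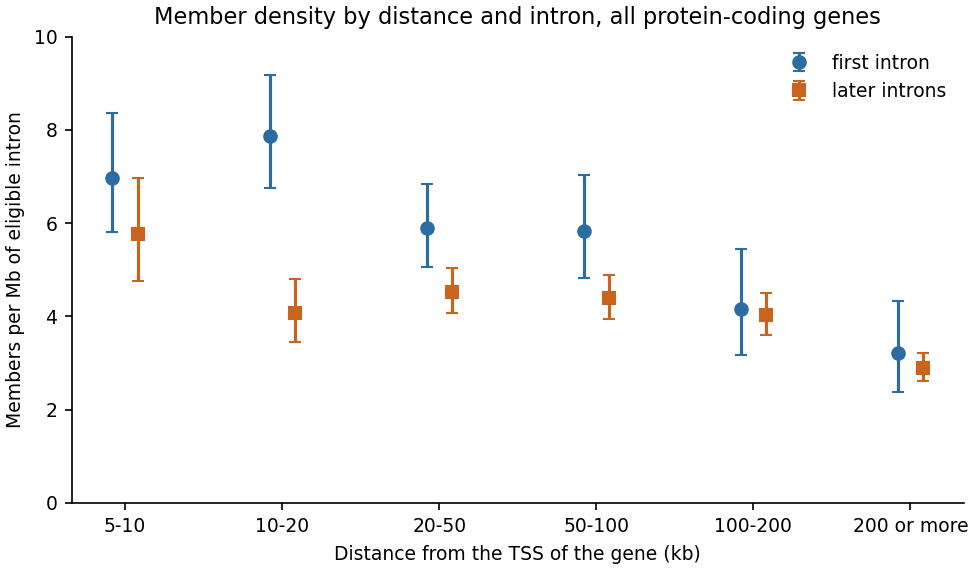
Members per Mb of eligible intron, over all protein-coding genes, by distance from the TSS of the gene in kb. Circles are first introns and squares later introns of the principal transcript, with 95% intervals. First introns stand highest at 10 to 20 kb, 7.87 against 4.07, and the intervals of both kinds overlap outside 10 to 50 kb.

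Against the even spread over its own host, the excess near the TSS was small. The class at 5 to 10 kb held 9.98% of members (8.82 to 11.2) where even placement gave 8.03%, and the class at 100 to 200 kb held 15.1% (13.7 to 16.6) where it gave 16.7%. In the 4 other classes the even value lay within the interval. Members were fewer close to exons. Of the 2211 members in principal introns, 10.6% (9.37 to 12.0) were within 500 bp of an exon of that transcript, where even placement gave 15.3%. Within 2000 bp the share was 30.3% (28.4 to 32.3) against 35.8%.

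Along the gene, members were spread widely. The median position was 49.3% of host length (47.7 to 51.1). The first 50% of the host held 1237 members, or 51.0% (49.0 to 53.0), where even placement in each host gave 47.8%. Hosts were also divided into 10 equal parts. Part 1, at the TSS, held 6.64% of members (5.68 to 7.70) against 5.53%, and part 2 held 11.6% (10.3 to 12.9) against 9.75%. In parts 3 to 10 the even value lay within the interval.

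**Figure D5:**
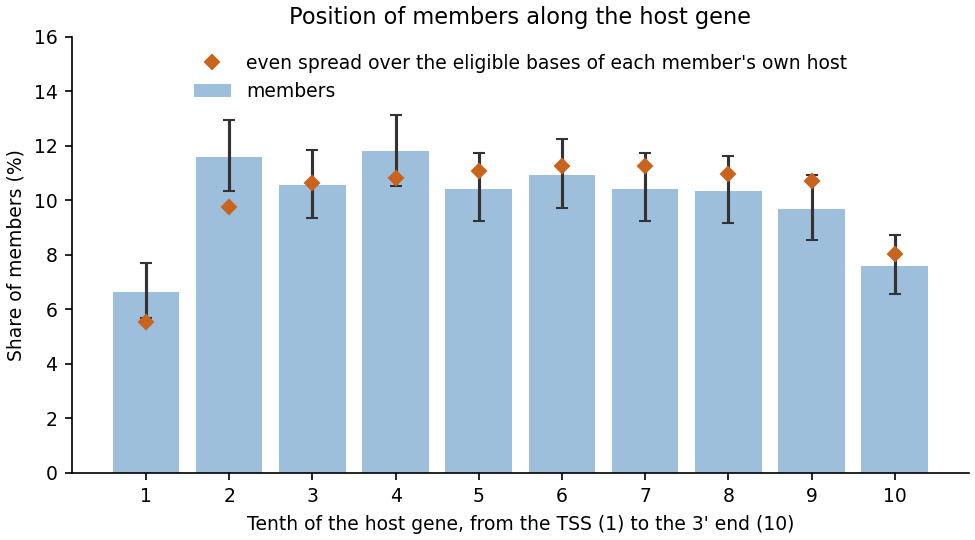
Share of the 2425 members in 10 equal parts of the host gene, from the TSS to the 3' end. Bars are members with 95% intervals, and diamonds are the shares that an even spread over the eligible bases of each member's own host would give. Members exceed the diamonds in parts 1 and 2, with 6.64% against 5.53% and 11.6% against 9.75%.

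First and later introns differed little in their motifs. Sox was less frequent in first introns, 25.7% of 654 members against 31.5% of 1557, a ratio of 0.816 (0.703 to 0.948), and the intervals of the other 10 motifs included 1. The composite was in 3.52% and 3.79%. Median GC content was 48.2% (47.9 to 48.6) in first and 47.1% (46.8 to 47.4) in later introns, and its part in the difference of Sox was not tested.

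Some members were nearer to the TSS of another gene than to that of a host. For 708 members (29.2%, interval 27.4 to 31.0), the nearest TSS of a protein-coding gene was not that of a host. These lay a median of 60.5 kb from that other TSS and 136 kb from the TSS of their host. The share was 10.1% in first introns and 38.1% in later introns, and it went from 23.0% in hosts of up to 100 kb to 38.5% in hosts above 300 kb. Later introns and long hosts reach farther from the host TSS by position alone. Shares under even placement were not computed here. Arhgap21 was the nearest gene of 10 of the 13 members in Etl4, at 277 to 475 kb. Smad7, an inhibitor of TGF-beta signalling, was nearest to 7 members in Ctif and Dym, at 82.3 to 164 kb, besides the 3 it hosted. Kdm6b, a demethylase of histone H3, was nearest to 4 members in Dnah2, at 23.8 to 58.0 kb, and Galnt17 to 5 members in Auts2. Which gene a member acts on was not measured.

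Among the gene lists, hosts are read against the 11.2% of all eligible genes and the 4.35 members per Mb. The share of hosts rose with gene length, and no adjustment for length was made. The median length was 29.6 kb over all eligible genes, 50.2 kb in the LIF, 68.5 kb in the TGF-beta and 70.0 kb in the Wnt list. It was 62.1 kb in the FGF, 52.7 kb in the Polycomb, 38.3 kb in the DNA methylation, 68.7 kb in the Hippo and 33.3 kb in the early lineage list. Of the pluripotency transcription factors, 5 of 15 with eligible sequence were hosts (33.3%, interval 11.8 to 61.6), with 8 members at 24.7 per Mb (12.4 to 49.4). Their median length was 19.04 kb. Esrrb, a nuclear receptor of the ESC network, had 3 members, 1 in intron 2 and 2 in intron 3, at 110, 138 and 141 kb from its TSS. The farthest, chr12:86501553-86502238, was 686 bp wide and held Klf and Esrrb motifs, and the nearest, chr12:86470927-86471273, held an octamer, a Nanog core and a Myc E-box. Etv5, an Ets factor, had 2 members 35.8 and 41.2 kb from its TSS, each with a Nanog core. Tbx3 and Tfcp2l1 had 1 each, and only 2 of the 5 genes kept a member when the limit was 10 kb.

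In the LIF pathway, 2 of 10 genes were hosts (20.0%, interval 2.52 to 55.6), at 10.35 members per Mb (3.34 to 32.1). Lifr, the receptor of LIF, had 2 members 25.1 and 27.6 kb from its TSS, and the first, chr15:7115317-7116159, was 843 bp wide with a composite and an octamer. Socs2, an inhibitor of cytokine signalling, had 1. In the TGF-beta, Nodal and BMP pathway 5 of 27 genes were hosts (18.5%, interval 6.30 to 38.1), with 6.25 members per Mb (3.12 to 12.49). These were the inhibitors Smad7 with 3 members and Smad6 with 1, the signal transducer Smad3 with 1, the ligand Bmp7 with 1 and the co-receptor Tgfbr3 with 2.

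In the Wnt pathway, 11 of 35 genes were hosts (31.4%, interval 16.9 to 49.3), at 9.77 members per Mb (5.89 to 16.2). Members lay in the ligand gene Wnt3, in the receptors Lgr4 and Lgr5 (2 each), in the kinase gene Gsk3b (2), in Tcf7l1, Tcf7l2 and Lef1 (1 each), which encode the DNA-binding factors of the pathway, and in the co-repressor genes Tle1 (1) and Tle3 (2). Znrf3 and Pygo1 had 1 each. The Gsk3b members lay in introns 1 and 2, and both Lgr4 members in intron 1. In the FGF and ERK pathway, 8 of 29 genes were hosts (27.6%, interval 12.7 to 47.2), at 7.66 members per Mb (4.94 to 11.9). Of their 20 members, 11 belong to the long Fgfr2 line described above. Fgf4, Fgfr1, Gab1, Spred2 and Rps6ka3 had 1 each, and Nf1 and Sos1 had 2 each.

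Of the Polycomb genes, 8 of 29 (27.6%, interval 12.7 to 47.2) held 18 members, 11.6 per Mb (7.30 to 18.4), 8 of them in Auts2. The subunit genes Jarid2, Mtf2 and Rnf2 had 2 each, and Bcor, Cbx7, Kdm2b and Rybp had 1 each. Of the DNA methylation genes, 2 of 17 were hosts, a share (11.8%, interval 1.46 to 36.4) and a density (5.11 members per Mb, 1.28 to 20.4) near those of all eligible genes. Tet2, an oxidase of methylated cytosine, held 1 member of 872 bp in its first intron (chr3:133524442-133525313), and Dnmt3a, a DNA methyltransferase, 1 of 768 bp in intron 6 with an Esrrb motif. In the Hippo pathway, 6 of 19 genes were hosts (31.6%, interval 12.58 to 56.55), with 11 members at 12.52 per Mb (6.93 to 22.6). Tead1 and the cofactor gene Vgll4 had 3 each, Nf2 had 2, and Lats2, Tead2 and Tead4 had 1 each. The Lats2 and Tead2 members held a composite.

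Of the early lineage regulators, 2 of 20 were hosts (10.0%, interval 1.24 to 31.7), Pax6 with 2 members and Otx2 with 1, at 5.23 members per Mb (1.69 to 16.2), and neither kept a member at a limit of 10 kb. Of the axon guidance genes, 16 of 67 were hosts (23.9%, interval 14.3 to 35.9), with 3.20 members per Mb (2.18 to 4.69). Epha4 and Nrp2 had 4 members each. The median length in this list was 69.0 kb, against 29.6 kb over all eligible genes. Of the cadherins and protocadherins, 9 of 68 were hosts (13.2%, interval 6.24 to 23.6), with 2.55 members per Mb (1.61 to 4.05). Their median length was 146 kb. The density was below the 4.35 of all genes and the 4.996 of genes of 100 to 300 kb, and near the 2.87 of genes above 300 kb. The part of length was not tested. Cdh1, which encodes E-cadherin of ESCs, had 3 members, all in intron 2, at 5.93, 16.3 and 29.4 kb from its TSS, and Cdh13 had 7.

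Some members lay close to another member of the same gene. Of the 2425, 446 members (18.4%, interval 16.9 to 20.0) had another member of the same host within the distance at which enhancers are usually stitched into super-enhancers. This share was 10.6% within 5 kb and 25.8% within 25 kb. In all, 541 of 2211 (24.5%) shared their intron with another. What even placement in each host would give was not computed for these shares. Whether members lay closer together than under even placement was therefore not tested. After the first introns of Gm20388 and Ptprg, the introns with most members held 5 each. They included the first introns of Grik3, Btbd11, Nxn and Clybl. Later introns were also among them, such as intron 4 of Iqschfp and intron 2 of Lrrtm4. On chromosome X there were 23 members, and their density relative to the autosomes, per Mb of eligible sequence, was 0.223 (0.148 to 0.336). Neither the copy number nor the read depth of this chromosome can be read from the list, and their part was not tested.

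The 5 widest members are given next, and width says nothing of peak strength. The first, chr8:116673569-116674694 (1126 bp), lay in intron 1 of Cdyl2, a chromodomain gene, 58.9 kb from the TSS. The next were chr6:54096286-54097265 (980 bp) in intron 1 of Chn2, the 939 bp member of Iqschfp and chr6:136113674-136114581 (908 bp) in intron 2 of Grin2b, an NMDA receptor subunit. The Grin2b member held a composite, an octamer, Sox, a Nanog core and Tead. The fifth, of 887 bp, lay in intron 1 of Arhgap17 and was nearer to Lcmt1, by 24.4 against 24.6 kb. All 5 intervals stood on more than 1 line of the list, as did 32 members in all. At the other end, 185 members had the smallest width, 235 bp. The longest introns with members were those of Gm20388, Gm37240 (1245 kb, intron 3) and Lrrtm4 (786 kb, intron 2, 5 members), and the latter encodes a postsynaptic adhesion protein.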

How the data were processed

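The input was left out. Nanog ChIP-seq was performed on 1 immunoprecipitated sample, with 1 input, and only the former has a peak list. Following the methods of the study and its processing notes, reads were inspected with FastQC, aligned to mm10 with Bowtie2, filtered with SAMtools and BEDtools, and peaks were called with MACS2. The versions of the aligner, the filtering tools and the peak caller, the threshold of the call and the use of the input as its control are not given in the sources used here. The authors deposited each peak as chromosome, start and end, so the values are positions in base pairs, with no counts, score or summit. Duplicate removal and the threshold decide which weak sites are listed. The 8860 lines held 8737 distinct intervals, each counted once, and 2 on unplaced scaffolds were left out.

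Sequence came from GRCm38.p6 (RefSeq), whose chromosome names and lengths match mm10, and genes from GENCODE vM21. Positions are 1-based. Each gene line contributed its 5' end as TSS. The principal transcript was the one with the best APPRIS principal tag, then the longest summed exons. Shares have Clopper-Pearson intervals, ratios intervals on the log scale, and densities within strata were combined by the Mantel-Haenszel method. Medians have order-statistic intervals. No p-value was computed, since peaks of 1 library are not replicates.

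Motifs were searched as consensus letters on both strands, all but the composite without mismatch. Control windows with an N base or a peak were left out. Genes named are the 12 hosts with most members, list genes with 2 or more members (or 1, in lists under 15 genes), the 5 widest members, the 3 farthest from the TSS of their host and the 3 longest introns with a member. Other list genes with 1 member, the genes nearest to several members and the introns with most members were named after their values were seen. Members and lists were chosen with earlier results of these data known. Some genes, a sequence and a gene list are not reported here. Counting was tested on simulated data. Python 3.11.15, numpy 2.4.6, scipy 1.17.1 and matplotlib 3.10.9 were used.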

Additional observations from a re-analysis of the deposited data

How the results depend on the processing

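No paired analysis was possible because there is a single peak list, and no replicate could be left out. Other settings gave 108 values: 86 lay inside the reported value's interval (for counts, a factor of 1.5), 22 lay outside, and no ratio whose interval left out 1 changed direction. The 5 alternatives for distance classes, each host gene, both together, the long gene lines and the shortest host were added after seeing the data.

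The share of members in the first intron, 29.6%, was 40.9% when the first intron of any coding transcript counted, 32.2% with 1 member per host (the one nearest to the TSS, which favours first introns by construction) and 26.9% at 10 kb from every TSS. The ratio of first to later introns, 1.40, was 1.58 with 1 member per host and 1.22 within each host gene and distance class, and 1.44 without Gm20388 and Fgfr2. The share in the first 50% of the host, 51.0%, was 58.7% with 1 member per host and 47.4% at 10 kb. The share nearer to another protein-coding TSS, 29.2%, was 16.4% with the TSS of every coding transcript, 64.0% with every gene and 31.4% at 10 kb. The share with a neighbour in the host, 18.4%, was 10.6% within 5 kb, 25.8% within 25 kb and 24.8% when any peak counted. The composite ratio, 5.70, was 1.74 with at most 1 mismatch (5 members, interval 0.468 to 6.48). The CTCF ratio, 1.86, was 3.30 (1.16 to 9.35) against windows 3 kb away. In 200 bp around the centre the ratio was 3.19 for Sox, 1.93 for the Nanog core, 6.34 for the extended Nanog motif and 1.61 for Tead. At 10 kb, list hosts numbered 2 for pluripotency, 1 for LIF, 3 for TGF-beta and 0 for early lineage genes, with fewer members to count. Apart from these constructions, the cause was not tested. The depth of the library is unknown, so sites missed by the peak call cannot be counted.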
